A study of Danio rerio with 2 samples.

Results

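The transcripts described here are those of protein phosphatase 2A (PP2A) on a zebrafish mTOR signaling PCR array, taken as every gene of the array whose symbol begins with ppp2. There were 3 such genes among the 84 pathway genes, *ppp2ca* (NM_001017886), *ppp2r2bb* (NM_001030122) and *ppp2r4* (NM_001003425), and all 3 gave a value in every replicate. They were measured in *NOD1-1IS*-/- larvae, homozygous for an allele of *NOD1* with a short insertion made by Cas9 and a guide RNA, and in wild-type (WT) larvae, AB/TU by the study's methods. Each genotype was read in 3 biological replicates at 10 dpf, each a pool of 200 to 250 whole larvae. The mutant is a single insertion line, and WT animals from the same clutches are not named in the sources used here. For its hatching and survival assays, the study took eggs and larvae from WT and from mutant parents. Differences of genetic background, of parents and of the *NOD1* allele therefore cannot be told apart. In whole larvae, fewer cells of a type and less RNA per cell cannot be told apart either. The study reported later hatching and lower larval survival in this mutant than in WT. Whether the pools differed in stage or in which larvae survived was not tested.

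PP2A is a serine/threonine phosphatase assembled from a catalytic C subunit, a scaffold A subunit and an exchangeable regulatory subunit that directs it to its substrates. In mammalian cells it removes activating phosphates from Akt and from S6 kinase, and so works against the kinases of the mTOR pathway. *ppp2ca* codes for a catalytic subunit. *ppp2r2bb* codes for a regulatory subunit of the B family, whose mammalian relative is best known from the brain. *ppp2r4* codes for the PP2A activator, which in yeast and mammals helps the catalytic subunit to reach its active form, and which is not a subunit of the assembled enzyme. All 3 RefSeq identifiers are in the GRCz12tu gene table, where *ppp2ca* is now *ppp2caa* and *ppp2r4* is now *ptpa*. None of the 3 shares a chromosome with *nod1* in that table. The table lists 23 protein-coding genes named ppp2 or *ptpa*, so the array reads a small part of the family. It holds 1 of 3 catalytic genes, 1 of 17 regulatory genes, the activator, and 0 of 2 scaffold genes. The catalytic genes *ppp2cab* and *ppp2cb* are the close relatives of *ppp2caa*, and whether the assay also reads them was not tested, since its primers are not given in the sources used here.

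Each gene was read in 1 well per replicate with SYBR Green, and the measurement is the threshold cycle (Ct), the cycle at which the product crosses a set fluorescence. A Ct that is 1 cycle later stands for 2-fold less template if the product doubles in each cycle. All 534 gene wells gave a Ct, at or under 29.0 cycles, and the ppp2 genes lay in the middle of the plate, between 21.8 and 24.0 cycles. ΔCt is the number of cycles by which a gene came later than the average of *hprt1*, *nono* and *rpl13a* in the same replicate, so a higher ΔCt means lower expression. The log2 fold change is the difference of mean −ΔCt, *NOD1-1IS*-/- minus WT. The mean Ct of these reference genes was 19.3 ± 0.071 in *NOD1-1IS*-/- and 19.6 ± 0.12 in WT (SD, n = 3 each). The gene *nod1* is not on the array, so its transcript could not be used to check the labels.

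The catalytic and the regulatory gene had lower expression in *NOD1-1IS*-/- larvae and the activator gene did not, under the reference genes used for the deposited values. Expression of *ppp2ca* was 65.0% of WT and that of *ppp2r2bb* 73.5%, whereas *ppp2r4* was at 101%. Of the 3 genes, 2 were called lower and 0 higher at the threshold of 0.05 on limma's p, adjusted by the Benjamini-Hochberg method across the 84 pathway genes. Over all 84 genes, 19% were called lower and 3.57% higher, which is 16 and 3 genes. Without WT replicate 3 these counts were 10 and 0. Both calls were close to the threshold and neither held under most other choices of reference genes, as given further on.

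For the catalytic gene *ppp2ca*, ΔCt was 3.23, 4.02 and 3.27 cycles in *NOD1-1IS*-/- replicates 1, 2 and 3, against 2.90, 2.94 and 2.82 cycles in WT replicates 1, 2 and 3. Each mutant pool was thus below each WT pool in expression, and mutant replicate 2 was far below the other two. Relative to the WT mean, the mutant pools held 78.8%, 45.5% and 76.6% of the transcript, against 99.2%, 96.2% and 105% in the WT pools. The mean ΔCt was 3.51 ± 0.45 in *NOD1-1IS*-/- and 2.89 ± 0.062 in WT (SD, n = 3 each). The log2 fold change was −0.62 (standard error 0.19, 95% confidence interval −1.05 to −0.20, adjusted p = 0.0403 from limma), which is 1.54-fold lower expression. In limma the variance of each gene is drawn toward a value common to all genes. The standard error, interval and adjusted p therefore do not rest on the replicates of *ppp2ca* alone. The SD of *ppp2ca* among the mutant pools was above the median of 0.14 cycles over the pathway genes, so this step lowered its standard error. The fit also takes the same SD for both genotypes, whereas those of *ppp2ca* were 0.45 and 0.062. The gap between the genotypes, from the lowest mutant to the highest WT ΔCt, was 0.29 cycles and smaller than the spread of 0.79 cycles among the mutant pools. The two-sided exact permutation test gave p = 0.1, the smallest that 3 replicates against 3 allow. The SD of *ppp2ca* among the mutant pools ranked 2 of the 84 genes, whereas among the WT pools it ranked 71. Without mutant replicate 2 the log2 fold change was −0.36 with an adjusted p of 0.0516 from limma. Without WT replicate 2 it was −0.65 (adjusted p = 0.121) and without WT replicate 3 it was −0.59 (adjusted p = 0.137).

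For the regulatory gene *ppp2r2bb*, ΔCt was 4.50, 4.55 and 4.11 cycles in *NOD1-1IS*-/-, against 4.02, 3.95 and 3.86 cycles in WT. Mutant replicates 1 and 2 lay close together, and mutant replicate 3 was only 0.088 cycles from the nearest WT pool. Relative to the WT mean, the mutant pools held 67.9%, 65.7% and 89.2%, against 94.8%, 99.7% and 106% in the WT pools. The genotypes did not overlap, but by a margin that is smaller than the spread of 0.16 cycles among the WT pools. The mean ΔCt was 4.39 ± 0.24 in *NOD1-1IS*-/- and 3.95 ± 0.080 in WT (SD, n = 3 each). The log2 fold change was −0.44 (standard error 0.13, 95% confidence interval −0.74 to −0.15, adjusted p = 0.0383 from limma), or 1.36-fold lower, and the exact permutation test again gave p = 0.1. When replicates were omitted singly, the gene kept the call in 1 of 6 fits, the one without mutant replicate 3. The log2 fold change in these fits lay between −0.58 and −0.36, and the adjusted p between 0.00556 and 0.134 from limma.

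For the activator gene *ppp2r4*, ΔCt was 2.66, 3.10 and 2.47 cycles in *NOD1-1IS*-/-, against 2.66, 2.62 and 2.999 cycles in WT. The pools of the genotypes were interleaved, with a mutant pool at either end of the range. The mean ΔCt was 2.74 ± 0.32 in *NOD1-1IS*-/- and 2.76 ± 0.21 in WT (SD, n = 3 each). This gave a log2 fold change of 0.016 with a standard error of 0.17, and limma's adjusted p was 0.956 (exact permutation p = 0.9). Its 95% confidence interval was −0.36 to 0.39, or 0.779-fold to 1.31-fold. Changes of *ppp2r4* down to −0.36 or up to 0.39 lay inside this interval. The log2 fold change measured for *ppp2r2bb*, −0.44, lay outside it, but the interval of *ppp2r2bb*, −0.74 to −0.15, overlapped that of *ppp2r4*. These genes are compared directly further on, by their ratio within each replicate.

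**Figure D1:**
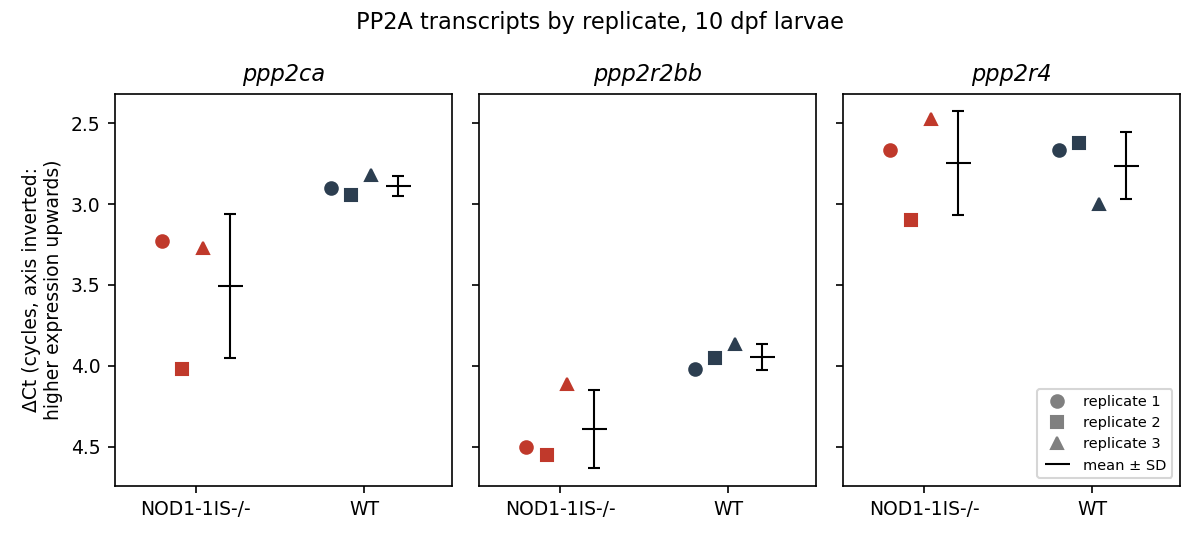
ΔCt in cycles (inverted axis, higher expression upwards) of *ppp2ca*, *ppp2r2bb* and *ppp2r4* in 3 *NOD1-1IS*-/- and 3 WT pools of 10 dpf larvae, with symbols for the replicate number and bars for the mean ± SD. The mutant pools lie below the WT pools for the first pair of genes, with *ppp2ca* of mutant replicate 2 at 4.02 cycles, and the pools of *ppp2r4* overlap.

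Of the 3 ppp2 genes, 2 had replicates that did not overlap between the genotypes, against 38.1% of all 84 pathway genes. Ordered from the lowest log2 fold change, *ppp2ca* ranked 9, *ppp2r2bb* 14 and *ppp2r4* 63 of 84. The median log2 fold change of all 84 genes was −0.11, and relative to it the 3 genes stood at −0.51, −0.33 and 0.13. Mutant replicate 2 had the highest ΔCt of the mutant pools for all 3 ppp2 genes, but for only 13 of the 84 pathway genes. The 3 ppp2 genes are in wells D11, D12 and E01, which follow each other in plate order. An effect of position was not tested. No single WT pool was the highest for more than 1 of the 3. The positive PCR control, a fixed template, had its latest mean Ct among the mutant pools in replicate 2, at 19.7 cycles against 19.3 and 19.5 in replicates 1 and 3, and 19.7 in each WT pool. Its part in the values of that replicate was not tested.

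**Figure D2:**
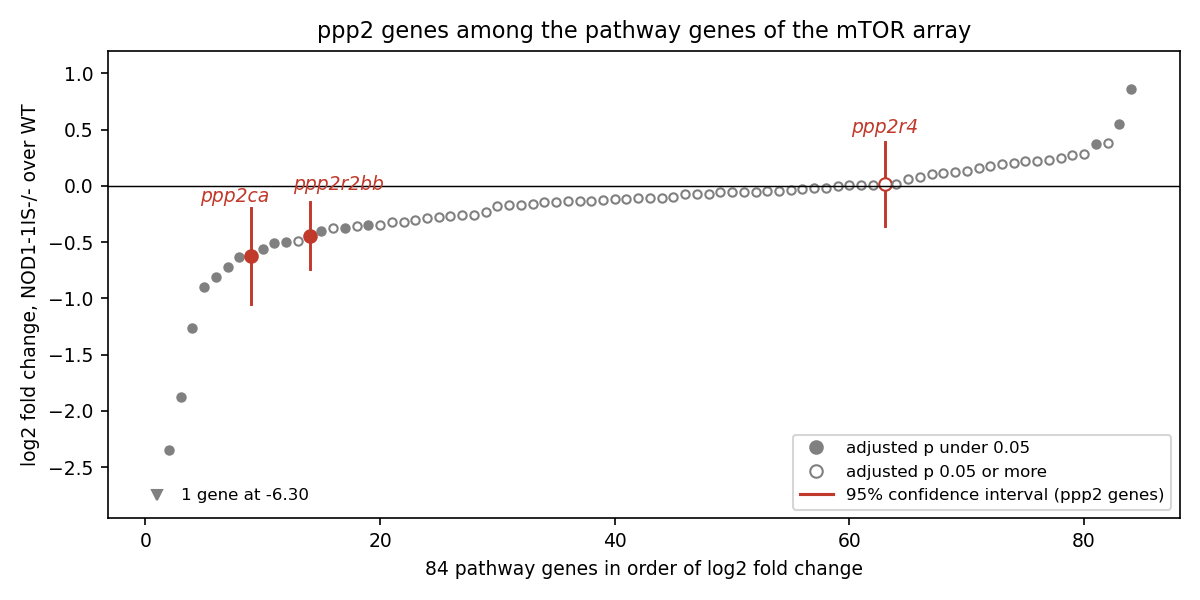
Log2 fold change (*NOD1-1IS*-/- over WT) of the 84 pathway genes in rising order, filled where the adjusted p is under 0.05, with the ppp2 genes in red and their 95% confidence intervals. *ppp2ca* (−0.62) and *ppp2r2bb* (−0.44) lie among the lower genes and *ppp2r4* (0.016) near the zero line.

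The ppp2 genes were then set against each other within each replicate, which uses no reference gene and removes any offset that a replicate's genes share. Primer pairs differ in efficiency, so only the change of such a ratio between genotypes is read. The log2 ratio of *ppp2ca* to *ppp2r4* was −0.57, −0.92 and −0.80 in *NOD1-1IS*-/-, against −0.23, −0.32 and 0.18 in WT. The genotypes did not overlap, and the ratio shifted by −0.64 (standard error 0.19), which is 1.56-fold less *ppp2ca* per *ppp2r4* in the mutant. Standard errors of the ratio shifts come from the replicates of each ratio alone, unlike those from limma. The log2 ratio of *ppp2r2bb* to *ppp2r4* was −1.84, −1.46 and −1.64 in *NOD1-1IS*-/-, against −1.36, −1.33 and −0.86 in WT. It shifted by −0.46 (standard error 0.20) with no overlap, though mutant replicate 2 was within 0.097 of the nearest WT pool. The log2 ratio of *ppp2ca* to *ppp2r2bb* was 1.27, 0.53 and 0.84 in *NOD1-1IS*-/-, against 1.13, 1.01 and 1.04 in WT, where it varied little. This ratio shifted by −0.18 (standard error 0.22), and the genotypes overlapped, with mutant replicate 1 above and mutant replicates 2 and 3 below the WT pools. Two-sided exact permutation tests of the 3 ratios gave p = 0.1, 0.1 and 0.5, or 0.15, 0.15 and 0.5 after Benjamini-Hochberg adjustment over the 3. The exact test cannot go below p = 0.1 in this design, so none could pass the threshold. When replicates were omitted singly, the shift lay between −0.74 and −0.48 for *ppp2ca* to *ppp2r4*, between −0.55 and −0.30 for *ppp2r2bb* to *ppp2r4*, and between −0.37 and −0.0021 for *ppp2ca* to *ppp2r2bb*. The ends at −0.48 and −0.30 came from leaving out WT replicate 3, the WT pool with the latest *ppp2r4*. Both ratios to *ppp2r4* share its values, so they are not independent results.

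**Figure D3:**
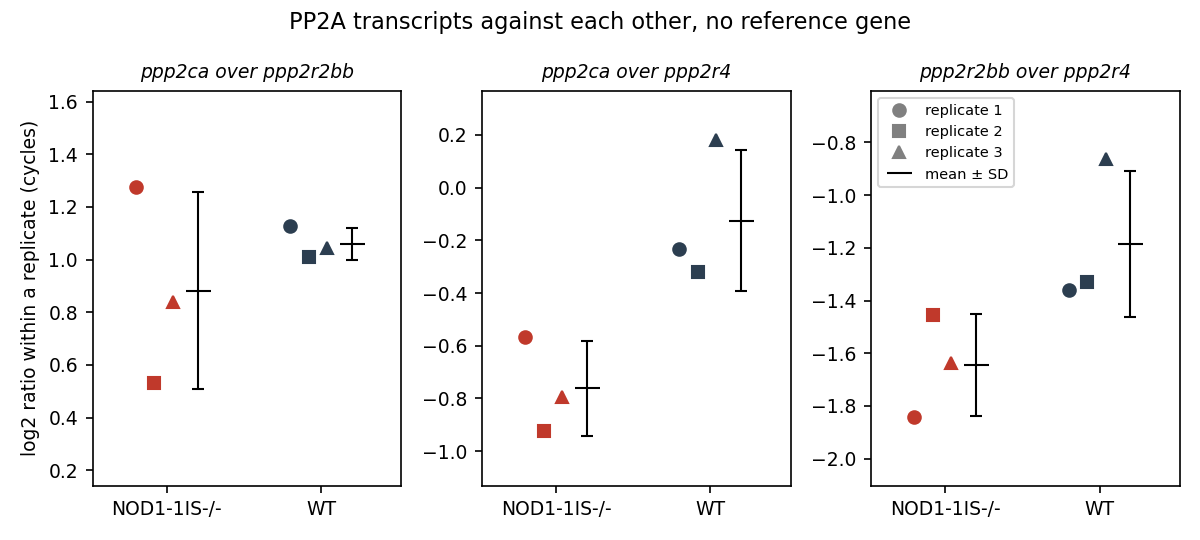
Log2 ratio of each pair of ppp2 genes within a replicate (cycles), for 3 *NOD1-1IS*-/- and 3 WT pools, with the mean ± SD. The panels start at different values and span the same range. Both ratios to *ppp2r4* are lower in all mutant pools, by −0.64 and −0.46 on average, and the ratio of *ppp2ca* to *ppp2r2bb* overlaps between the genotypes.

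The lower levels of *ppp2ca* and *ppp2r2bb* depended on what they were measured against. The raw Ct of *ppp2ca* was 22.49, 23.42 and 22.62 cycles in *NOD1-1IS*-/-, against 22.59, 22.44 and 22.55 cycles in WT. That of *ppp2r2bb* was 23.77, 23.96 and 23.46 cycles in *NOD1-1IS*-/-, against 23.71, 23.45 and 23.60 cycles in WT. On this scale the genotypes overlapped for both genes, with 2 of 3 mutant pools later than every WT pool for *ppp2r2bb* and for *ppp2ca* (exact permutation p = 0.4 each). The raw Ct of *ppp2r4* was 21.93, 22.50 and 21.82 cycles in *NOD1-1IS*-/-, against 22.35, 22.12 and 22.73 cycles in WT, and it also overlapped (exact permutation p = 0.3). The reference mean changed by −0.30 cycles in *NOD1-1IS*-/- relative to WT, with −0.51 for *nono*, −0.21 for *rpl13a* and −0.19 for *hprt1*. The other reference genes on the plate moved in the opposite direction, *b2m* by 0.16 and *acta1b* by 0.70 cycles. The positive PCR control changed by −0.21 cycles and the median pathway gene by −0.19. Over 12 other normalizations, *ppp2ca* was called lower in 2, with *nono* alone and with the positive PCR control, and *ppp2r2bb* in 1, with *nono* alone. These 2 fits gave every gene the same standard error, as did those with *b2m* alone and *acta1b* alone. The log2 fold change lay between −0.82 and 0.38 for *ppp2ca* and between −0.65 and 0.56 for *ppp2r2bb*, and the upper ends came from *acta1b* alone. For *ppp2r4* it lay between −0.19 with *nono* alone and 1.02 with *acta1b* alone. A change of reference shifts all 3 genes by the same amount, so the order of their log2 fold changes, with *ppp2ca* lowest and *ppp2r4* highest, was the same in each.

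**Figure D4:**
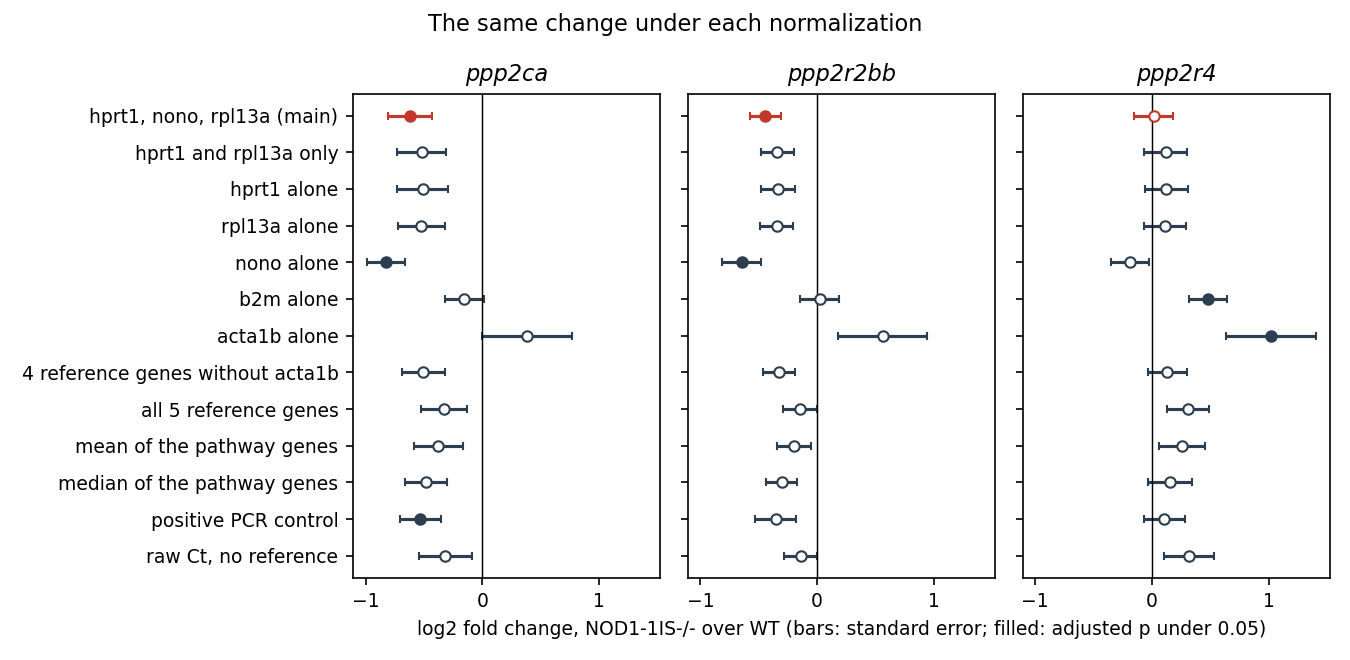
Log2 fold change (*NOD1-1IS*-/- over WT) of each ppp2 gene under 13 normalizations, with the standard error from limma and filled points for an adjusted p under 0.05. The 3 genes shift together from row to row, and the calls of *ppp2ca* and *ppp2r2bb* under *hprt1*, *nono* and *rpl13a* are lost in most other rows.

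On the same array, 12 genes code for proteins that PP2A is known to dephosphorylate in mammalian cells, namely Akt kinases, S6 kinase, the eIF4E-binding proteins, AMPK catalytic subunits, Ulk1, Gsk3b and the ERK kinases. Of these, 4 were lower, 0 were higher and 8 did not pass the test, against 19% lower and 3.57% higher among all 84 genes. Among the lower genes were *akt2* (log2 fold change −0.40, adjusted p = 0.0324), *prkaa2* (−0.51, adjusted p = 0.00664), which codes for a catalytic subunit of AMPK, and *akt2l* (−6.30), all from limma. The median log2 fold change of the 12 was −0.23, beside −0.11 for all 84. Of the 6 subunits of the mTOR complexes, 1 was lower (*deptor*, an inhibitor of mTOR, −0.37), 1 was higher (*mlst8*, a subunit of both complexes, 0.37) and 4 did not pass, with a median of −0.09. All calls in these lists are relative to *hprt1*, *nono* and *rpl13a*, and other references are not given for these genes. On raw Ct the genotypes overlapped for *akt2* and *deptor* and did not overlap for *prkaa2*, *akt2l* and *mlst8*.

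The pathway genes with the most similar profile were found by the root mean square difference of −ΔCt over the 6 replicates, each gene centred on its own mean. All profiles share the same reference mean and the same RNA pools. The difference between the genotypes is part of this distance, so genes near each other have similar log2 fold changes by construction. Nearest to *ppp2ca* were *ppp2r2bb* (0.24 cycles) and *tsc2* (0.26), against a median of 0.41 over the other pathway genes. Among the 3 genes nearest to *ppp2r2bb* were *prkaa2* (0.11 cycles) and *tsc2* (0.14), against a median of 0.28. *ppp2ca*, at 0.24 cycles, was not among these 3. *tsc2*, which codes for the GTPase-activating subunit of the TSC complex that restrains Rheb and mTORC1, had a log2 fold change of −0.35 and did not pass the test (adjusted p = 0.0755 from limma). Nearest to *ppp2r4* were *prkcbb* (0.15 cycles), *prkab1a* (0.17) and *prkceb* (0.21), against a median of 0.32, and none of these passed the test. The activator gene was farther from *ppp2ca* (0.37 cycles) and *ppp2r2bb* (0.30) than these were from each other.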

How the data were processed

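Raw Ct values were taken as deposited by the authors, who extracted RNA with TRIzol, reverse transcribed 1000 ng with SuperScript III and ran 40 cycles on a LightCycler; threshold and baseline settings are not given in the sources used here. The authors also deposited normalized values, each a ratio of gene to reference template (2 raised to −ΔCt) that averages the replicates of a genotype. These were used for gene symbols and to find their reference genes: of 31 combinations, *hprt1*, *nono* and *rpl13a* matched within 4.00e-07 on the log2 scale. The deposited table of fold changes between genotypes was not used. Wells were joined to symbols by position. The comparison of genotypes used limma 3.58.1 in R 4.3.3 (lmFit, eBayes) on −ΔCt, two-sided, over 84 genes with a threshold of 0.05; the 5 reference genes were left out. No gene was filtered. The fit was run on simulated data with independent noise and the same SD in both genotypes. That simulation did not cover errors shared through the reference mean or SDs that differ between genotypes. PCR arrays have no read depth, and precision is set by 3 replicates and 1 well each.

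The ppp2 genes, the gene lists and the tests were chosen with earlier results of these data known. All ppp2 genes are named, with the 3 nearest profiles of each, except 1 gene that is not reported here; *nod1* and gene symbols were looked up in the GRCz12tu table, and no coordinates are given. Alternatives were other reference genes, limma's trend and robust prior, a Ct limit of 35, a filter at a mean Ct of 25, leaving out each replicate, the replicate number as a block, a ratio of linear means and an exact permutation test. The positive PCR control as reference was added after seeing the data.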

Additional observations from a re-analysis of the deposited data

How the results depend on the processing

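Most other references raised the log2 fold changes of *ppp2ca* and *ppp2r2bb* and ended their calls. With *nono* alone both calls held, at −0.82 (adjusted p = 8.37e-06 from limma) and −0.65 (adjusted p = 5.79e-04), in a fit with 1 standard error for all genes. With all 5 reference genes they were −0.33 and −0.15, with the 4 other than *acta1b* −0.50 and −0.33, with *hprt1* and *rpl13a* −0.52 and −0.34, with *hprt1* alone −0.51 and −0.34, and with *rpl13a* alone −0.53 and −0.35. With *b2m* alone they were −0.16 and 0.021, and with *acta1b* alone 0.38 and 0.56. With the mean of the pathway genes they were −0.38 and −0.20, with their median −0.48 and −0.31, and on raw Ct −0.32 and −0.14. Each of these settings other than *nono* alone left 0 of the ppp2 genes lower. With the positive PCR control 1 was lower, *ppp2ca*, and *ppp2r2bb* was at −0.35. For *ppp2r4* the sign turned with *nono* alone (−0.19), and it was called higher with *b2m* alone (0.48) and *acta1b* alone (1.02), where 1 ppp2 gene was higher. The fits with *b2m* alone and *acta1b* alone also had 1 standard error for all genes. A filter at a mean Ct of 25 left 65 genes and the values of −0.62 and −0.44 as they were. Their unadjusted p from limma was 0.00953 and 0.00714, against 0.00864 and 0.00774 without the filter. The adjusted p rose to 0.0626 and 0.0580 from limma, so 0 ppp2 genes were lower. This adjustment also depends on the p of the other genes, and the filter took the pathway genes called lower from 16 to 2. The exact permutation test of −0.62 and −0.44 cannot pass the threshold at 3 against 3.

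When replicates were omitted singly, the log2 fold change lay between −0.76 and −0.36 for *ppp2ca*, which kept the call in 3 of 6 fits, between −0.58 and −0.36 for *ppp2r2bb*, which kept it in 1 of 6, and between −0.12 and 0.19 for *ppp2r4*, which turned sign in 3 of 6. The number of ppp2 genes lower was then between 0 and 2, and none was higher. Across all alternatives, limma's adjusted p lay between 8.37e-06 and 0.412 for *ppp2ca* and between 5.79e-04 and 0.901 for *ppp2r2bb*, and the low ends came from *nono* alone. Both calls held with a trend and robust prior and with a Ct limit of 35, which no well reached. Deviations of same-numbered replicates of the genotypes correlated at r = −0.22, 0.086 and −0.049 across genes. Replicates with different numbers gave r between −0.35 and 0.46. With 3 pools per genotype these values cannot show whether the numbers pair the pools. With the replicate block, 2 ppp2 genes were lower, at 1 standard error for all genes, and 14 pathway genes were lower and 2 higher. A ratio of linear means gave −0.58, −0.43 and 0.029. Among all 84 genes 16 were lower and 3 higher. These counts became 7 and 19 with all 5 reference genes, 10 and 5 with 4, 10 and 4 with *hprt1* and *rpl13a* or *hprt1* alone, 10 and 5 with *rpl13a* alone, 29 and 1 with *nono* alone, 5 and 39 with *b2m* alone, 3 and 55 with *acta1b* alone, 9 and 18 with the pathway mean, 9 and 7 with its median, 7 and 21 on raw Ct, 9 and 2 with the positive PCR control, and 2 and 1 after the filter at a mean Ct of 25. When replicates were omitted singly, between 10 and 15 genes were lower and between 0 and 4 higher. Without WT replicate 3 the counts were 10 and 0, and 1 gene was higher without mutant replicate 2, WT replicate 1 or WT replicate 2. The median log2 fold change of all genes moved between −0.31 with *nono* alone and 0.89 with *acta1b* alone.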
